A study of Mus musculus with 4 samples.

Results

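Transcripts of 8 genes of the kinase route from phosphoinositide 3-kinase (PI3K) through Akt to Gsk3 and mTOR were examined in heart ventricles of mouse embryos: Pik3ca, Pik3r1, Pdpk1, Mtor, Akt1, Akt2, Gsk3a and Gsk3b. Members were the probe sets whose platform symbol is one of these genes alone, which gave 29 probe sets for 8 of the 18193 genes named on the Affymetrix MOE430v2 array. Ventricles came at embryonic day 17.5 from HDAC2-deficient embryos (KO) and from wild-type littermates (WT) of a C57BL/6 X SV129 cross. Each of the 2 KO arrays carried RNA pooled from 3 animals, and each of the 2 WT arrays RNA pooled from 2 animals. No treatment is recorded for either genotype, and neither the Hdac2 allele nor the sex of the embryos is given in the sources used here. The genotype was taken from the sample titles, because the source field of both KO samples carries the abbreviation for wild type. Nothing says how the animals were divided among pools beyond their number, so the p-values rest on scatter between these pools, and some of that scatter may be technical. Each p-value also draws on the scatter of all probe sets tested and not on that of its own probe set alone.

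As background, growth factor receptors recruit PI3K, a lipid kinase made of a catalytic and a regulatory subunit, which makes the membrane lipid that draws Akt to the cell surface. There Pdpk1 and an mTOR complex phosphorylate and activate Akt, and Akt in turn inhibits the kinases Gsk3a and Gsk3b by phosphorylating them. In heart muscle the route controls cell size, glucose uptake and survival, and Gsk3b holds back hypertrophic growth. HDAC2, a class I histone deacetylase, has been studied upstream of Akt and Gsk3b in cardiac hypertrophy, and the comparison of KO with WT asks whether transcripts of the kinases themselves differ. The array measures transcripts and not phosphorylation, the level at which these kinases are mainly controlled.

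The arrays called 43.1% and 43.7% of their probe sets Present in KO and 43.1% and 42.4% in WT. Hdac2 at its brightest probe set, 1445684_s_at, read 31.4 and 21 in KO, without a Present call, against 1188.5 and 1421 in WT, at least 50.6-fold lower by the signals. All 10 heart muscle markers were Present on every array, with summed signals of 103101 and 109249 in KO and 108486 and 105758 in WT. The 14 skeletal muscle markers stood apart: their summed signals were 1308 and 1305 in KO and 13439 and 12533 in WT. Of the 12 of them tested, 10 fell in KO, and Myod1 and Myog had no Present call on any array, while none of the 14 was at 0 on any array. All 12 were Present on both WT arrays and 4 on both KO arrays, so the rest were in the test through WT alone. Those 4, Tnni2, Myl1, Myh8 and Klhl41, all fell. Across the array 0.96% of tested probe sets were lower in KO and 0.383% higher. Of the other marker lists, 0 of 6 endothelial genes passed, 2 of 6 fibroblast genes (Col1a1 and Col1a2) fell, 1 of 3 tested red cell genes (Hbb-y) rose, and 2 of 3 tested bone genes (Ibsp and Mmp13) fell. Ibsp and Mmp13 were in the test through WT alone and Hbb-y through KO alone. Xist, the RNA that coats the inactive X chromosome, read 548 and 794 in KO, against 80.5 and 90.1 in WT at 1436936_s_at. At its other probe set, 1427262_at, it read 414 and 797 in KO, both Present, against 1.3 and 6.1 in WT, both Absent. A difference in the sex of the pooled embryos cannot be told apart from genotype here, and its part in the values was not tested. The actin 3′ over 5′ control ratio, which grows as fewer copies reach the 5′ end, stood at 2.75 and 2.42 in KO and 1.85 and 2.32 in WT. In pooled bulk tissue, fewer cells of a type and less RNA per cell cannot be told apart.

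Of the 29 member probe sets, 17 were called Present on all 4 arrays, 9 were Absent on all 4, and the other 3 were Present on some. Probe sets Present on both arrays of at least 1 genotype were tested, 19 of the 29, and each of the 8 genes had at least 1. The Akt2 probe set 1421324_a_at entered the test through the WT arrays alone and the Gsk3b probe set 1434439_at through the KO arrays alone, so the filter itself favours a difference at those. The fit was limma on log2 signal across all 19065 probe sets that passed the same filter, with Benjamini-Hochberg adjustment over all of them and 0.05 as the threshold. Each difference is the KO mean less the WT mean of log2 signal, given ± its moderated standard error, from 2 arrays per genotype.

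Akt1 fell in KO at 1 dimmer probe set, which was Present on all 4 arrays. Akt2 also passed the test as lower at 1 dimmer probe set, but that one had no Present call in KO and so has only a bound there. At their brightest probe sets both KO arrays were the lower ones for both genes, without passing the test. The nearest arrays there were 1.02-fold apart for Akt1 and 1.12-fold for Akt2. Past the threshold were thus 2 member probe sets lower in KO, 1 of them when Present calls on all 4 arrays were required, and 0 higher, while across the array 0.96% of tested probe sets were lower and 0.383% higher, 1.34% together. At an unadjusted p under 0.05 there were 4 member probe sets of 19, against 15.5% of all tested, and the 17 members that did not pass had adjusted p-values from 0.123 to 0.995. Both KO arrays lay above both WT arrays at 2 of the 19 and below them at 8, while the groups overlapped at 9. The same patterns held for 25% (above) and 22.6% (below) of all tested probe sets. The median difference was -0.14 over the 19 and 0.01 over all tested probe sets, and the median absolute difference 0.17 and 0.19. At the brightest tested probe set, 0 of 8 genes passed in limma, with 1, Akt2, at an unadjusted p under 0.05. The 95% confidence intervals of these 8 lay within 0.626-fold and 1.56-fold of the WT level. Without WT replicate 1 the count of lower members was 1.

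**Figure D1:**
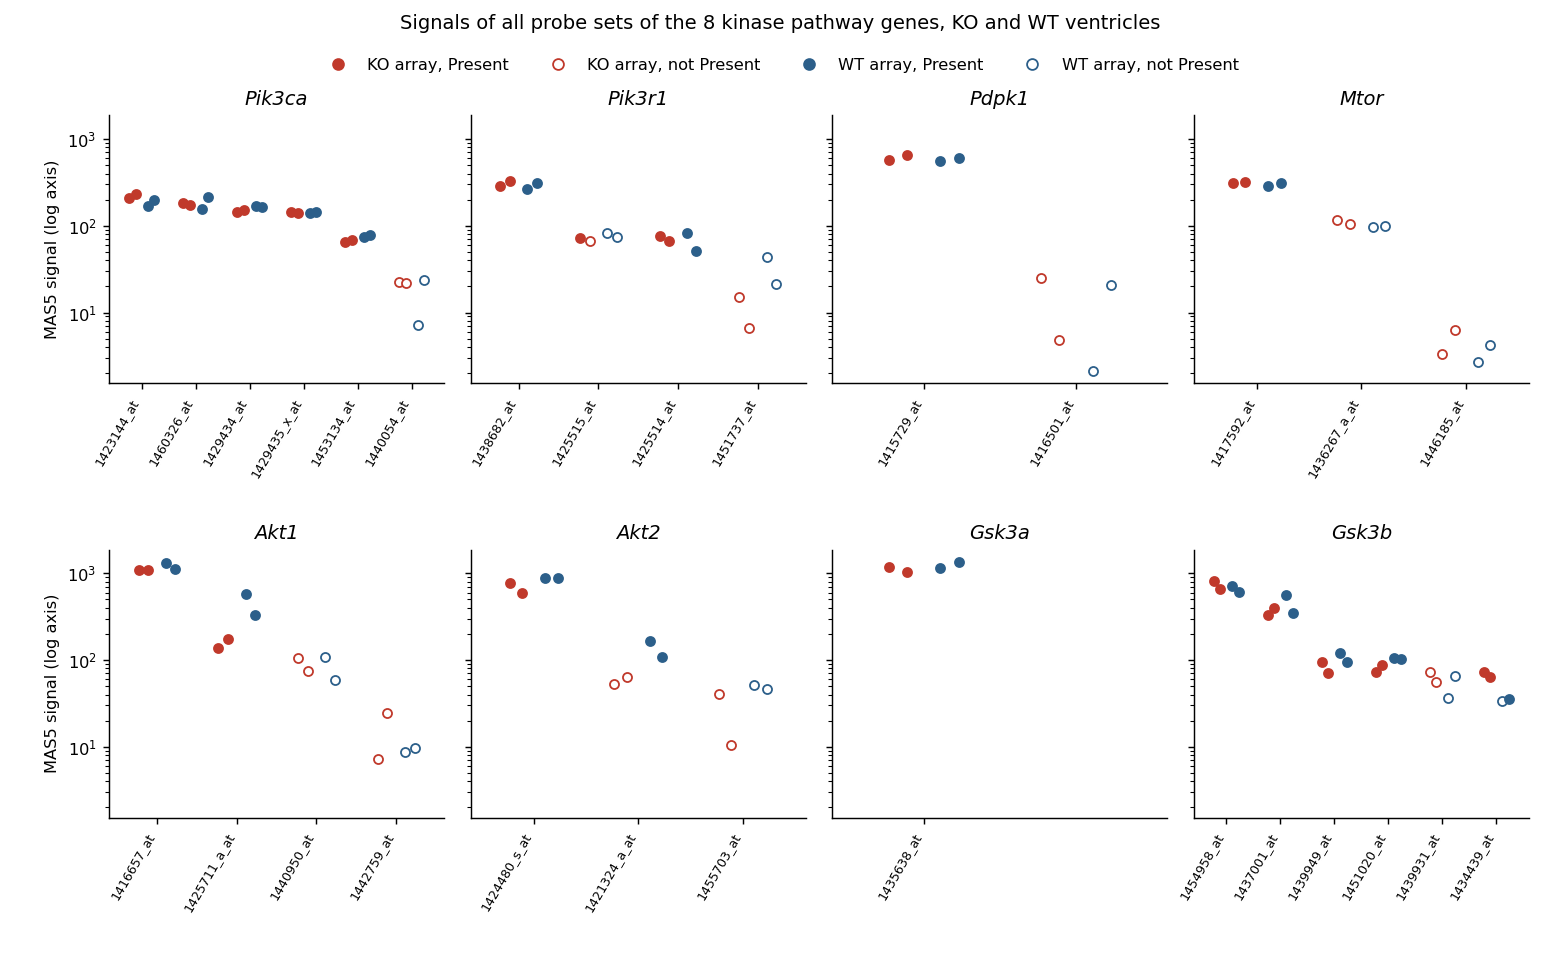
Signals of all 29 probe sets of the 8 genes, 1 panel per gene, on a log axis of MAS5 signal, with red points for the 2 KO arrays left of blue points for the 2 WT arrays and open points for arrays without a Present call. The groups lie farthest apart among Present probe sets at Akt1 1425711_a_at, with 139 and 175 in KO against 574 and 329 in WT.

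Pik3ca, the catalytic subunit of PI3K that growth factor receptors engage, was measured by 6 probe sets and passed the test at none. Its brightest, 1423144_at, read 209 and 236 in KO, against 170 and 198 in WT. Both KO arrays were above both WT arrays there, by 0.27 ± 0.17 (adjusted p = 0.461). The next, 1460326_at, read 184 and 174 in KO, inside the range of 154 and 215 in WT. Probe set 1429434_at read 146 and 153 in KO, against 167 in both WT arrays (-0.16 ± 0.18). Here the KO arrays were the lower ones, opposite to 1423144_at. Probe set 1429435_x_at, whose suffix marks probes that may also bind other transcripts, had 144 and 139 in KO and 139 and 145 in WT, with overlapping groups. The dimmest tested, 1453134_at, read 64.5 and 67.8 in KO, against 73.7 and 78.9 in WT (-0.21 ± 0.24). Both KO arrays were again the lower ones, and the 5 differences ran from -0.21 to 0.27. Probe set 1440054_at was Absent on all 4 arrays, at 22.6 and 21.8 in KO and 7.2 and 23.4 in WT.

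Pik3r1, the regulatory subunit that stabilises the catalytic one and docks it to receptors, did not pass at either tested probe set. Its brightest, 1438682_at, read 285 and 328 in KO, against 269 and 308 in WT (0.09 ± 0.16). At 1425514_at the signals were 75.3 and 67.4 in KO and 83.2 and 51.7 in WT (0.12 ± 0.28), and the groups overlapped at both. The 2 untested probe sets were lower on both KO arrays: 1425515_at read 72.9 and 67.6 in KO, against 83.3 and 73.9 in WT, with 1 Present call among 4 arrays. Probe set 1451737_at, Absent on all 4, read 15.2 and 6.7 in KO and 43.3 and 21.3 in WT.

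Pdpk1, the kinase that phosphorylates the activation loop of Akt, read 571 and 648 in KO, against 552 and 607 in WT at 1415729_at. The groups overlapped, at 0.07 ± 0.13 (adjusted p = 0.835). Its other probe set, 1416501_at, was Absent on all 4 arrays, with signals from 2.1 to 25.1 and no separation of the genotypes.

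Mtor, the kinase at the core of both mTOR complexes, read 311 and 318 in KO, against 287 and 312 in WT at 1417592_at (0.07 ± 0.15, adjusted p = 0.855). The groups overlapped, and the 95% confidence interval of this difference was -0.24 to 0.39. Probe set 1436267_a_at was Absent on all 4 arrays and read 116 and 106 in KO, against 97.1 and 99.4 in WT, so that both KO arrays were the higher ones. Probe set 1446185_at was Absent at signals from 2.7 to 6.3.

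Akt1, the most widely expressed Akt kinase, gave different answers at its 2 tested probe sets. At 1416657_at, the brightest, the signals were 1099 and 1104 in KO, against 1299 and 1127 in WT. Both KO arrays lay below both WT arrays, but -0.14 ± 0.11 missed the threshold (adjusted p = 0.599, 95% confidence interval -0.38 to 0.11). At 1425711_a_at the signals were 139 and 175 in KO, against 574 and 329 in WT. All 4 arrays were Present and the groups were apart, with the lower WT array 1.88-fold above the higher KO array, although the WT arrays themselves differed by 0.80 on the log2 scale. Akt1 fell there by 1.48 ± 0.23 on the log2 scale, 2.78-fold (adjusted p = 0.00458 in limma). With 1 array left out the difference ran from -1.88 to -1.07. In such a fit the array left alone in its genotype adds no scatter of its own. The 2 remaining probe sets were Absent on all 4 arrays with overlapping groups: 1440950_at read 105 and 75.2 in KO and 107 and 58.2 in WT, and 1442759_at from 7.3 to 24.4.

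The Akt1 call at 1425711_a_at was lost without the filter on detection (adjusted p = 0.192), without the variance trend (0.207) and with the signal log ratio (0.353). The 3′ over 5′ ratio of actin was higher on both KO arrays and the skeletal muscle markers summed to 1305 to 1308 in KO, against 12533 to 13439 in WT. The part of either in the values of Akt1 and Akt2 was not tested.

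Akt2, the isoform that carries insulin signalling to glucose transport in muscle and fat, was lower on both KO arrays at all 3 of its probe sets. At the brightest, 1424480_s_at, whose suffix marks probes shared by transcripts of more than 1 gene, the signals were 779 and 587 in KO, against 879 and 874 in WT. At -0.37 ± 0.14 it missed the threshold (adjusted p = 0.228). Its difference was -0.58 without KO replicate 1 and -0.17 without KO replicate 2, each with 1 array alone in KO. At 1421324_a_at the signals were 52.9 and 63.9 in KO, without a Present call, against 166 and 109 in WT, both Present. With the KO signals not above background, the difference has only a bound, at least 2.31-fold lower (adjusted p = 0.0340 in limma), and the probe set was in the test only because WT was high. Leaving out WT replicate 1 ended that call (adjusted p = 0.301), as did leaving out KO replicate 1 (0.0591) or quantile normalization (0.0579). It was also lost without the filter on detection (adjusted p = 0.305), without the variance trend (0.208) and with the signal log ratio (0.353). Probe set 1455703_at, Absent on all 4 arrays, read 40.8 and 10.5 in KO and 51.7 and 46.5 in WT.

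**Figure D2:**
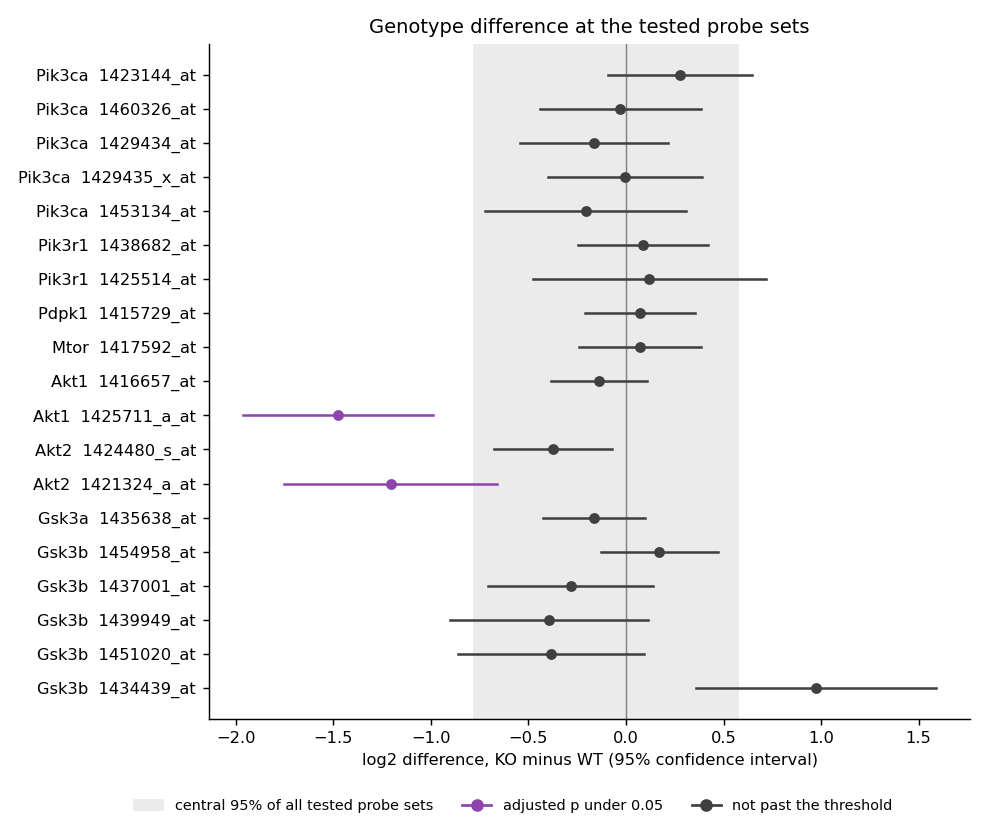
Log2 difference, KO minus WT, at the 19 tested probe sets (points, n = 2 arrays per genotype) with 95% confidence intervals (lines), over a grey band holding the central 95% of all tested probe sets, from -0.78 to 0.58. Akt1 1425711_a_at and Akt2 1421324_a_at lie left of the band and passed the threshold, while Gsk3b 1434439_at lies right of it and did not.

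Gsk3a, 1 of the 2 Gsk3 kinases that Akt inhibits, had 1 probe set. Its signals of 1168 and 1047 in KO overlapped those of 1135 and 1354 in WT (-0.17 ± 0.12, adjusted p = 0.540).

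Gsk3b, the other Gsk3 kinase and the one studied most in hypertrophy, passed the test at none of its 5 tested probe sets, whose differences ran from -0.39 to 0.97. At the brightest, 1454958_at, the signals were 817 and 666 in KO, against 715 and 601 in WT, and the groups overlapped (0.17 ± 0.14, adjusted p = 0.586). At 1437001_at they were 333 and 402 in KO and 566 and 351 in WT, overlapping again (-0.28 ± 0.20). The next pair pointed down on both KO arrays: 1439949_at read 93.7 and 71.6 in KO, against 121 and 95.3 in WT (-0.39 ± 0.24). Probe set 1451020_at read 73.0 and 87.1 in KO, against 106 and 102 in WT (-0.39 ± 0.22). The dimmest tested probe set went the other way. At 1434439_at the signals were 72.6 and 63.4 in KO, both Present, against 33.4 and 35.7 in WT, of which 1 was Present. The groups were 1.78-fold apart at their nearest arrays, and 0.97 ± 0.28 missed the threshold (adjusted p = 0.123). The sixth probe set, 1439931_at, was Absent on all 4 arrays, at 73.6 and 55.9 in KO and 36.3 and 64.9 in WT.

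Whether the probe sets of a gene differed from each other was tested directly. For each of the 5 member genes with at least 2 tested probe sets, 16 probe sets in all, limma's diffSplice set the difference of each probe set against the mean of the others of its gene, adjusted over 10592 probe sets of the array. Gsk3b 1434439_at departed from the other Gsk3b probe sets by 1.20 on the log2 scale (adjusted p = 0.0471), the 1 member to pass, where 0.444% of the probe sets so tested passed. It was in that test only through its Present calls in KO, and it was not tested when Present calls on all 4 arrays were required. The Gsk3b call was also lost with an offset of 16 (adjusted p = 0.0879) or without the filter on detection (0.243), and it was lost with any 1 array left out, with adjusted p-values of 0.489 without WT replicate 1, 0.168 without WT replicate 2, 0.211 without KO replicate 1 and 0.218 without KO replicate 2. Akt1 1425711_a_at departed from the brighter Akt1 probe set by -1.34 (adjusted p = 0.210), and Akt2 1421324_a_at from the brighter Akt2 probe set by -0.83 (adjusted p = 0.374). This test assumes that probe sets of a gene share 1 variance, and on simulated data, where they did not, it gave an excess of calls. With weights that let variance change with brightness, an alternative added after the data were seen, the calls changed places: Akt1 passed (adjusted p = 0.0319), Gsk3b did not (0.234), and 0.746% of all probe sets so tested passed. The other 11 member probe sets had adjusted p-values from 0.374 to 0.999, and the Pik3r1 pair and the Pik3ca set were among them.

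The same contrast can be read as a ratio of signals on one array. Akt1 1425711_a_at reached 12.7% and 15.9% of the signal of 1416657_at in KO, against 44.2% and 29.1% in WT. The ratio for Akt2 1421324_a_at over 1424480_s_at was 6.79% and 10.9% in KO and 18.9% and 12.4% in WT. For Gsk3b 1434439_at over 1454958_at it was 8.89% and 9.51% in KO and 4.67% and 5.94% in WT. The 3 pairs were chosen with these differences known, so the ratios describe them and add no support. The dimmer Akt2 signal was Absent on both KO arrays and the dimmer Gsk3b signal on 1 WT array, where the ratios rest on signals not above background. A ratio of this kind shows unequal change of 2 probe sets and not which of them changed.

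**Figure D3:**
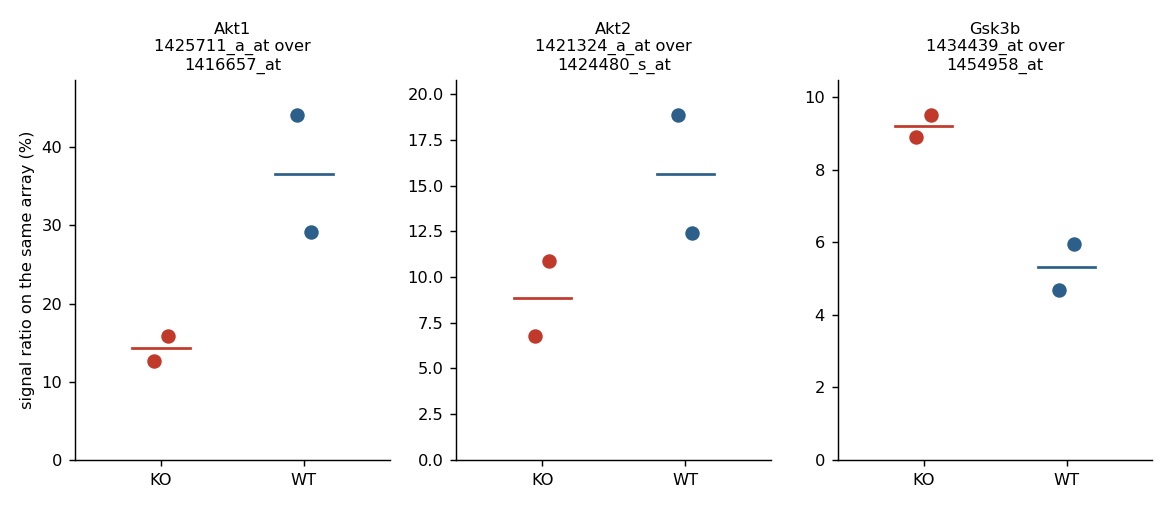
Signal of a dimmer probe set as a percent of the brightest probe set of the same gene on the same array, for Akt1, Akt2 and Gsk3b, with points for the 2 KO arrays (left) and 2 WT arrays (right) and lines at the mean of each pair. Both KO points lie below both WT points for Akt1 and Akt2 and above them for Gsk3b.

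MAS5 also gives a signal log ratio, which compares an array with a baseline array probe pair by probe pair. The baseline is not named in the sources used here, but it was common to the 4 arrays: log2 signal minus this ratio had a median SD of 0.10 over the arrays, against an SD of 2.58 over the 6906 probe sets used. Both measures come from the same scans, so the second is no replicate of the first. At Akt1 1425711_a_at the ratios were 1.8 and 2.2 in KO, against 4.1 and 3.2 in WT, a difference of -1.65 where the signals gave -1.48. At Akt2 1421324_a_at they were -0.8 and -1.0 in KO, against 0.5 and 0.1 in WT, a difference of -1.20 with both KO arrays Absent. Both probe sets were lower in KO on both scales. At the brightest Akt1 probe set, 1416657_at, the ratios overlapped, at 0.5 and 0.4 in KO and 0.7 and 0.3 in WT. Gsk3b 1434439_at stood at 0.60, less than its 0.97 in the signals, and Gsk3b 1451020_at at -0.80, more than its -0.39. The sign was the same in both measures at 16 of the 19 tested member probe sets, as it was at 73.3% of all tested. The exceptions were Pik3ca 1429434_at (0.05) and both tested Pik3r1 probe sets, 1438682_at (-0.10) and 1425514_at (-0.15).

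**Figure D4:**
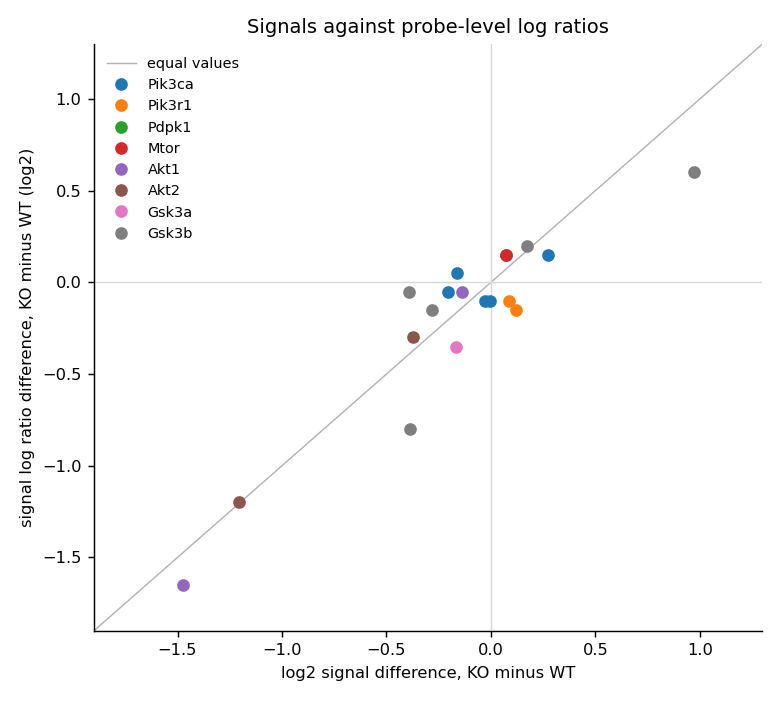
Difference, KO minus WT, in the MAS5 signal log ratio (vertical axis, log2) against the difference in log2 signal (horizontal axis) for the 19 tested probe sets, coloured by gene, with a grey line of equal values. Akt1 1425711_a_at and Akt2 1421324_a_at lie lowest on both axes, near the line, and the points of Pdpk1 and Mtor coincide.

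The genes whose pattern over the 4 arrays lay nearest to Akt1 and Gsk3b were read at the brightest probe sets Present on every array. Nearest to Akt1 among 9212 other genes were Ppp1ca, a catalytic subunit of protein phosphatase 1 (distance 0.021 on the centred log2 scale), Eif3b, a translation initiation factor (0.030), and Gatad1 (0.031). Nearest to Gsk3b were Bivm (0.030), Ptprd, a receptor tyrosine phosphatase (0.033), and Creld2 (0.041). With 4 arrays such closeness is common: 144 genes lay within 0.1 of Akt1 and 51 within 0.1 of Gsk3b.

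Around the core, 139 other genes of the route were listed by role, of which 131 were on the array and 111 were tested at the brightest tested probe set. In limma 1 of the 111, Mycn, rose and 1, Rps6, fell, where 0.481% of all 10184 tested genes rose and 0.815% fell. Unadjusted p was under 0.05 for 27, 15 with a positive and 12 with a negative difference, against 15.6% of all tested genes. The median difference of the 111 was 0.05, and that of all tested genes 0.03. Over any tested probe set 4 of the 111 genes passed, Rps6, Slc2a4, Mycn and Gata4, against 1.99% of all tested genes. Both calls at the brightest probe set ended on leaving out KO replicate 2 or either WT array. A fit without KO replicate 1 takes its KO values from 1 array alone. The calls of all 4 genes ended without the filter on detection (adjusted p from 0.115 to 0.281), without the variance trend (0.162 to 0.247) and with the signal log ratio (0.353 to 0.519). Quantile normalization ended those of Mycn (adjusted p = 0.0639) and Gata4 (0.0556).

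Upstream, 0 of 14 tested receptors and adaptors passed, and 4 had an unadjusted p under 0.05, all with a positive difference. Of all 10184 tested genes, 858 had such a p with a positive and 727 with a negative difference. Whether the list differs from this was not tested. Pdgfra, a receptor of fibroblasts, read 290 and 362 in KO, against 208 and 245 in WT (0.52 ± 0.17, adjusted p = 0.162). Gab1, a docking protein that recruits PI3K, stood at 0.36 ± 0.12. The insulin receptor adaptors Grb10 and Grb14, which dampen signalling, stood at 0.29 ± 0.11 and 0.26 ± 0.11. Grb10 stood at 0.47 without KO replicate 1 and at 0.12 without KO replicate 2. Among 8 other PI3K subunits 0 passed, and 1 had an unadjusted p under 0.05. Pik3cd, the catalytic subunit most abundant in leukocytes, read 793 and 510 in KO, against 879 and 1083 in WT (-0.62 ± 0.18, adjusted p = 0.118). The KO signal of 510 was called Marginal and not Present. Without KO replicate 1, which leaves that array alone in KO, the difference was -0.94. The 6 macrophage markers, of which C1qa had no Present call and none was at 0, summed to 1063 and 1047 in KO and to 1235 and 1406 in WT. None of the 5 tested passed, and their part in the Pik3cd values was not tested.

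Of the phosphatases that remove the PI3K lipid or the phosphates of Akt, 10 were tested, 0 passed and 0 had an unadjusted p under 0.05. All 10 differences were positive and small, from 0.0065 to 0.18, and across the array 5668 of 10184 tested genes had a positive one. The smallest p-values belonged to Ppp2r2a, a regulatory subunit of protein phosphatase 2A (0.13 ± 0.14), and Inpp4a, an inositol phosphatase (0.18 ± 0.20). Of 10 other regulators of Akt tested, 0 passed, and 1 in each direction had an unadjusted p under 0.05. Cdc37, the chaperone partner that loads kinases onto Hsp90, read 1687 and 1411 in KO, against 1962 in both WT arrays (-0.35 ± 0.11, adjusted p = 0.162). Its difference was -0.48 without KO replicate 1 and -0.22 without KO replicate 2. Trib2, a pseudokinase that binds Akt, stood at 0.38 ± 0.13.

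Among 22 tested genes of the mTOR complexes and their upstream switch, 0 passed, positive and negative differences were 11 each, and 2 in each direction had an unadjusted p under 0.05. Akt1s1, the mTOR inhibitor that Akt switches off, read 646 and 466 in KO, against 797 and 770 in WT (-0.51 ± 0.15, adjusted p = 0.123). Prkaa2, the AMP-activated kinase subunit of muscle, stood at -0.40 ± 0.13. Rictor, the defining subunit of the mTOR complex that phosphorylates Akt, stood at 0.40 ± 0.17, and Rragd, a GTPase that reports amino acids to mTOR, at 0.32 ± 0.13. Without KO replicate 1, which leaves 1 array alone in KO, the differences were -0.75 for Akt1s1, -0.55 for Prkaa2 and 0.49 for Rragd. Without KO replicate 2 they were -0.28, -0.25 and 0.15.

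Of 23 tested targets of Akt and mTOR, 1 fell at its brightest probe set, and at an unadjusted p under 0.05 there were 3 with a positive and 8 with a negative difference. Among all 10184 tested genes these numbers were 858 and 727, and whether the list differs from them was not tested. Rps6, the ribosomal protein that S6 kinase phosphorylates, read 324 and 281 in KO, against 472 and 460 in WT. The groups were apart, and the fall of 0.63 ± 0.14, 1.54-fold, lay at the threshold (adjusted p = 0.0495). Leaving out WT replicate 1 (adjusted p = 0.247), WT replicate 2 (0.138) or KO replicate 2 (0.139) ended the Rps6 call. Slc2a4, the insulin-dependent glucose transporter of muscle and fat, fell at 1415959_at, with 230 and 205 in KO against 427 and 393 in WT (-0.92 ± 0.15, adjusted p = 0.00775). With WT replicate 1 left out it just missed the threshold (adjusted p = 0.0533). At its brighter 1415958_at, Slc2a4 read 561 and 498 in KO, against 771 and 750 in WT (-0.53 ± 0.13, adjusted p = 0.0628). That probe set passed with quantile normalization (adjusted p = 0.0492) and with median centring (0.0413). Its difference was -0.61 without KO replicate 1 and -0.44 without KO replicate 2. The skeletal muscle markers moved the same way, from 1305 to 1308 in KO against 12533 to 13439 in WT, and their part in the Slc2a4 result was not tested. Eif4ebp2, a translation repressor that mTOR inactivates (-0.57 ± 0.16), the cell cycle inhibitor Cdkn1a (-0.55 ± 0.16) and Tbc1d4, a brake on glucose transporter traffic that Akt releases (0.58 ± 0.16), did not pass.

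Of 24 tested partners and targets of Gsk3, 1 rose at its brightest probe set, and 5, all with a positive difference, had an unadjusted p under 0.05. Such a p came with a positive difference at 858 and a negative one at 727 of all 10184 tested genes. Whether the list differs from this was not tested. Mycn, a growth-promoting transcription factor that Gsk3 marks for destruction, read 348 and 418 in KO, against 248 and 217 in WT (0.72 ± 0.16, adjusted p = 0.0434). Both KO arrays were above both WT arrays, and leaving out WT replicate 1 (adjusted p = 0.0636), WT replicate 2 (0.175) or KO replicate 2 (0.167) ended the call. Myc, its relative, stood at 0.43 ± 0.19, and Nfatc2, a calcium-driven transcription factor, at 0.36 ± 0.15. Dpysl2, a neuronal microtubule-binding protein, and the transcription factor Creb1 stood at 0.24 ± 0.10 and 0.31 ± 0.14. Gata4, a cardiac transcription factor that Gsk3b phosphorylates, fell at the dim 1418864_at, with 89.0 and 70.7 in KO against 173 and 145 in WT (-0.997 ± 0.21, adjusted p = 0.0376). It did not pass once WT replicate 1 (adjusted p = 0.231) or KO replicate 2 (0.128) was left out. At the brighter Gata4 probe set 1418863_at the signals of 738 and 569 in KO enclosed those of 619 and 659 in WT (0.02 ± 0.14).

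**Figure D5:**
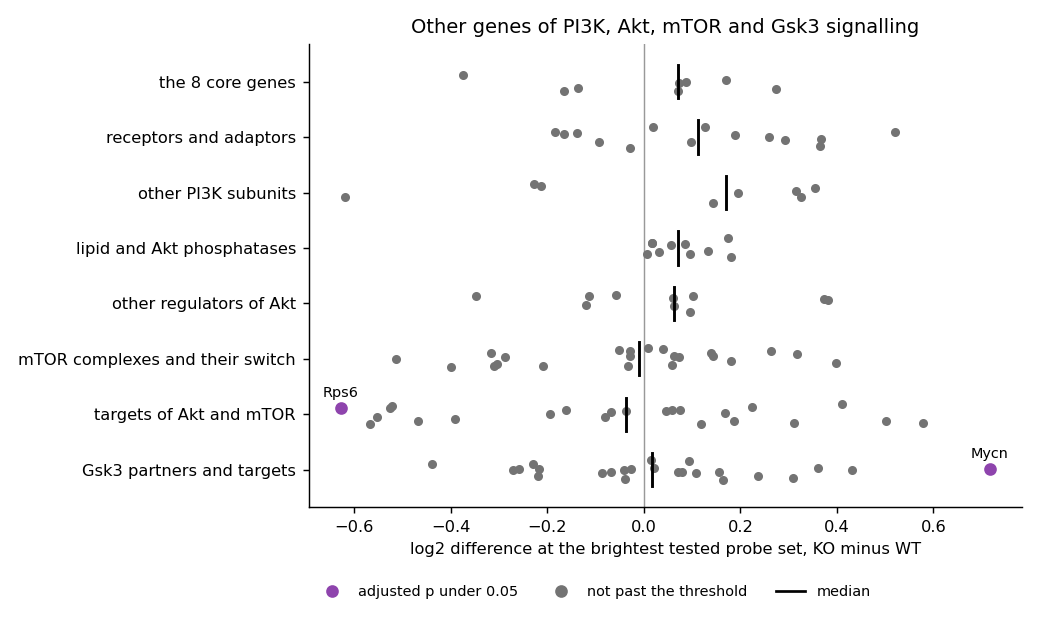
Log2 difference, KO minus WT, at the brightest tested probe set of the 8 core genes (top row) and of 111 other genes of the route by role, 1 point per gene, with black bars at each median and purple points past the adjusted threshold. Rps6 lies at -0.63 and Mycn at 0.72, and 0 of the 8 core genes passed.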

How the data were processed

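Per the labels, biotin-labelled cRNA was made from 6 µg of total RNA and hybridised to 1 Affymetrix array per pool. The deposited signal is an intensity on a linear scale computed by MAS5; the submitters' processing notes name it without a version. The trimmed mean signal was already 150 on each array. Before the fit the arrays were scaled to a common 2%-trimmed mean, which left the signals almost unchanged. Per the file headers, the deposited files also hold a detection p-value with its call, a count of probe pairs and a signal log ratio on a log2 scale. The series table held the same signals.

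Genes were named from the platform annotation, updated by gene identifier. Of 45037 probe sets other than controls, 34945 name 1 gene and 34741 of those matched a GRCm38.p6 gene table. Only gene names were used, so no position is given.

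Log2 signals (0 set to 0.1) were fitted with limma 3.58.1 in R 4.3.3 (lmFit, eBayes with a variance trend), genotype alone, two-sided. Where a genotype had no Present call, a fold is given as "at least", against the higher of the dim signal and the lowest Present signal of each array. Such a bound allows for signals not above background and not for the scatter between arrays. Scripts were tested on simulated data, on which diffSplice without weights gave an excess of calls. Precision is limited by the number of arrays. The members and lists were chosen with earlier results of these data known. Named are all members, Hdac2, Xist, the marker lists, the nearest patterns, and in each pathway list the genes called, up to 5 at an unadjusted p under 0.05, or else the 2 with the smallest p. Alternatives were other normalizations, an offset of 16, other filters, other variance models, the signal log ratio, each array left out, and a replicate block.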

Additional observations from a re-analysis of the deposited data

How the results depend on the processing

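Across 56 results and 14 alternatives, 597 of 718 recomputed values kept their direction and their side of the threshold, or for counts stayed within 1.5 times. Many of these results had not passed to begin with and keep their side easily. The share therefore does not measure how stable the calls were. Member probe sets lower in KO numbered 2, and numbered 1 with quantile normalization, 1 when Present calls on all 4 arrays were required (the Akt2 probe set then drops out), 0 without a filter on detection, 0 without a variance trend, 0 with the signal log ratio, and 1 to 2 with 1 array left out. None was higher under any alternative. Other pathway genes higher in KO numbered 1, and 0 with quantile normalization, no filter, no variance trend or the signal log ratio, and 0 to 3 with 1 array left out. Those lower numbered 1, and 2 with quantile normalization or median centring, 0 with no filter, no variance trend or the signal log ratio, 6 with the replicate block, and 0 to 6 with 1 array left out. Members departing from their gene's other probe sets numbered 1, and 0 with the offset of 16, no filter, Present on all 4 arrays or the replicate block, 0 with any array left out, and 2 (the Akt1 pair) with the added variance weights. Over the whole array, 73 were higher and 183 lower, against 7 and 30 without a filter, 4 and 19 without a variance trend, 0 and 1 with the signal log ratio, and 271 and 450 with the replicate block. With 1 array left out these ranged from 48 to 222 higher and from 110 to 428 lower, the most in each direction without KO replicate 1. An array left alone in its genotype was assumed to vary like the others. The cause of these shifts was not tested, apart from probe sets lost to the stricter filter.

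Differences near 0 turned sign. With 1 array left out, Pik3ca ran from -0.27 to 0.21 at 1460326_at and from -0.031 to 0.024 at 1429435_x_at, Pik3r1 from -0.012 to 0.19 at 1438682_at and from -0.22 to 0.46 at 1425514_at. Pdpk1 1415729_at ran from -0.021 to 0.16, Gsk3b 1437001_at from -0.63 to 0.062, Inpp4a from -0.036 to 0.40 and Gata4 1418863_at from -0.17 to 0.21. Quantile normalization gave 0.043 for Pik3ca 1429435_x_at and -0.016 for Gata4 1418863_at, and median centring gave -0.0099 for Gata4 1418863_at. The signal log ratio gave 0.05 for Pik3ca 1429434_at, -0.10 and -0.15 for the 2 Pik3r1 probe sets and -0.10 for Gata4 1418863_at.

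The titles number the arrays 1 and 2 in each genotype. Deviations of equally numbered arrays correlated at -0.01 over 19065 probe sets, so the numbers were not taken to pair the arrays. With the replicate block the Akt1 and Akt2 calls stayed, Pik3cd (adjusted p = 0.00612), Akt1s1 (0.0190), Slc2a4 1415958_at (0.0141), Eif4ebp2 (0.0335) and Cdkn1a (0.0404) passed as lower in KO, and the departure of Gsk3b 1434439_at did not (adjusted p = 0.132). The diffSplice test uses no variance trend, so that alternative gave no value for it, and it was not run on the signal log ratio. Dim probe sets such as Gsk3b 1434439_at lie near the limit of detection, where 2 arrays per genotype give wide intervals.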
